A study of Homo sapiens with 18 samples.

Results

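T47D cells that carry a doxycycline-inducible G0S2 gene were compared after 15 and after 3 days of induction, to see which early changes faded and which changes appeared late. The comparison used 6 libraries of the 18 in the series, chosen by their labels: 3 taken after 3 days and 3 taken after 15 days of doxycycline at 0.5 ug/ml. Another 3 T47D libraries without doxycycline (day 0, the control) gave the starting level and entered the estimate of the spread. T47D is a luminal breast cancer line that has the estrogen receptor. The remaining 9 libraries come from MDA-MB-231, a receptor-negative breast cancer line, under the same 3 conditions. All groups of T47D carry the introduced gene, and no doxycycline-treated cells without it were analysed here, so G0S2, doxycycline and the vector cannot be told apart as sources of a change. Day 15 cells also spent longer in culture than day 3 cells, and no untreated day 15 cells were analysed here. The vector, its promoter, the selection of the line and whether it is 1 clone are not stated in the labels. The series' design text speaks of another contrast, parental against Aza-resistant lines in biological triplicate, which no sample label mentions; the labels were followed, and every difference given rests on them. Nor do the labels tell whether libraries of a group are separate cultures, and p-values therefore describe library spread that could be technical in part.

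Much of what follows concerns the interferon response, a program by which cells answer signs of viral infection. Double-stranded RNA in the cytoplasm is bound by the sensors RIG-I (gene DDX58) and MDA5 (IFIH1), which signal through MAVS to induce interferons. Interferons bind their receptors, the kinases JAK1 and TYK2 phosphorylate STAT proteins, and STAT2 joins IRF9 in a factor that binds interferon-stimulated response elements in the promoters of antiviral genes. Many of those genes encode effectors that block viral RNA or protein synthesis, and some, such as STAT2, IRF9 and the sensors, feed back on the pathway itself. The protein made from G0S2 binds and inhibits ATGL (PNPLA2), the lipase that starts the breakdown of stored triglycerides.

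The promoters of 4 effector genes with some of the largest falls from day 3 to day 15 are shown because they carry the core letters of that response element, GAAANNGAA, searched on both strands within 250 bases before the start. Each line holds the 170 bases before the RefSeq start on the plus strand of GRCh38.p14, read 5′ to 3′, and capitals mark the core (as its reverse complement where it lies on the minus strand).
IFIT1: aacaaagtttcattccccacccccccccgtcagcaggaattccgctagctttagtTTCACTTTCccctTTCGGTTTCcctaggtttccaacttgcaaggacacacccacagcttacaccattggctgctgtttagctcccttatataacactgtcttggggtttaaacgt
IFI44L: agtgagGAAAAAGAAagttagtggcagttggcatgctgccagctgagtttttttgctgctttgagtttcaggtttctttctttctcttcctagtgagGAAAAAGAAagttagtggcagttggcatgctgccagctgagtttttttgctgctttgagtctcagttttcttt
RSAD2: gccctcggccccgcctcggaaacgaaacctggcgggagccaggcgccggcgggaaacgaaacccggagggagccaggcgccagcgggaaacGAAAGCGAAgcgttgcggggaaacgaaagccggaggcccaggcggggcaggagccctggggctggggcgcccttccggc
IFIT3: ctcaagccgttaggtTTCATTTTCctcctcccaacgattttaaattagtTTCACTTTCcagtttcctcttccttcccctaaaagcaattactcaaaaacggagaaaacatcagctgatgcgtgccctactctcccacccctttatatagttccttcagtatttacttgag
These windows lie at chr10:89392453-89392622 (IFIT1), chr1:78620278-78620447 (IFI44L), chr2:6865715-6865884 (RSAD2) and chr10:89327827-89327996 (IFIT3). The core began 115 and 102 bases before the start of IFIT1, 164 and 73 bases before that of IFI44L, 79 bases before that of RSAD2, and 155 and 121 bases before that of IFIT3. Promoters were looked up for the 6 effector or sensor genes with the largest called falls that had an entry in the table, and 2 of them, XAF1 and MX1, had no such letters in their window. Among all 27305 promoters of the table, 7.06% held GAAANNGAA in the same window. The STAT element TTCNNNGAA, which reads the same on both strands, was held by 6.78% of all promoters and by none of the 6 chosen. Only 45 of the 58 effectors measured (77.6%) had an entry, under the 80% set as a minimum, so a comparison of the whole effector list with other promoters was void. A match describes the letters of the window and not a bound site.

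The 6 libraries held 44.2 M to 47.9 M reads each. Day 3 libraries differed little among themselves: over 9925 genes with a mean log2 CPM of at least 3, the SD of a library's difference from the other libraries of its group was 0.0612 to 0.0669. At day 15 it was 0.0825 for replicate 1, 0.138 for replicate 3 and 0.179 for replicate 2, which lay over 0.5 (log2) away from the others for 158 genes. In day 15 replicate 2, the fifth of genes with the highest GC content stood 0.21 above the other day 15 libraries (median, log2) and the fifth with the lowest GC content -0.09 from them. For day 15 replicate 3 these medians were -0.17 and 0.09. All 9 luminal markers (such as GATA3, FOXA1 and KRT8) were listed, and their levels summed to between 9527 and 9713 CPM at day 3 and between 9034 and 9496 CPM at day 15. Of 8 basal or mesenchymal markers only TP63 was listed, at under 1 CPM in these libraries, and none of 5 endothelial markers was.

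G0S2 itself (chromosome 1 of GRCh38, 209675420 to 209676388, plus strand) was induced at both times. Its level was 0.90, 0.277 and 0.376 CPM in the control libraries, 883, 855 and 844 CPM at day 3, and 766, 993 and 736 CPM at day 15. The day 15 libraries lay on both sides of the day 3 range, and the difference was -0.06 on the log2 scale (SE 0.371, adjusted p = 0.962). A count per gene does not separate the introduced copy from the endogenous one.

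From day 3 to day 15, 494 of 14768 listed genes fell (3.35%) and 330 rose (2.23%) at an adjusted p under 0.05 over all genes. Most changes were small, with a median size of 0.30 on the log2 scale among called genes, but 56 genes fell by more than 2-fold against 8 that rose by as much. Without day 15 replicate 2, 1461 genes were called lower (9.89%) and 1143 higher (7.74%), and 60 and 11 passed 2-fold. Leaving out day 15 replicate 1 gave 478 called genes, and leaving out day 3 replicate 1, 2 or 3 gave 409, 403 and 457. The libraries of the 2 times did not overlap for 1755 genes with lower day 15 values (11.9%) and 1547 with higher ones (10.5%). Against control, 171 genes were higher (1.16%) and 106 lower (0.718%) at day 3, and 739 were higher (5.00%) and 920 lower (6.23%) at day 15. These comparisons share libraries, so their values are given side by side and their overlap is not read as a result. In bulk RNA, fewer cells with a transcript and less of it per cell cannot be told apart, here or in any result below.

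**Figure D1:**
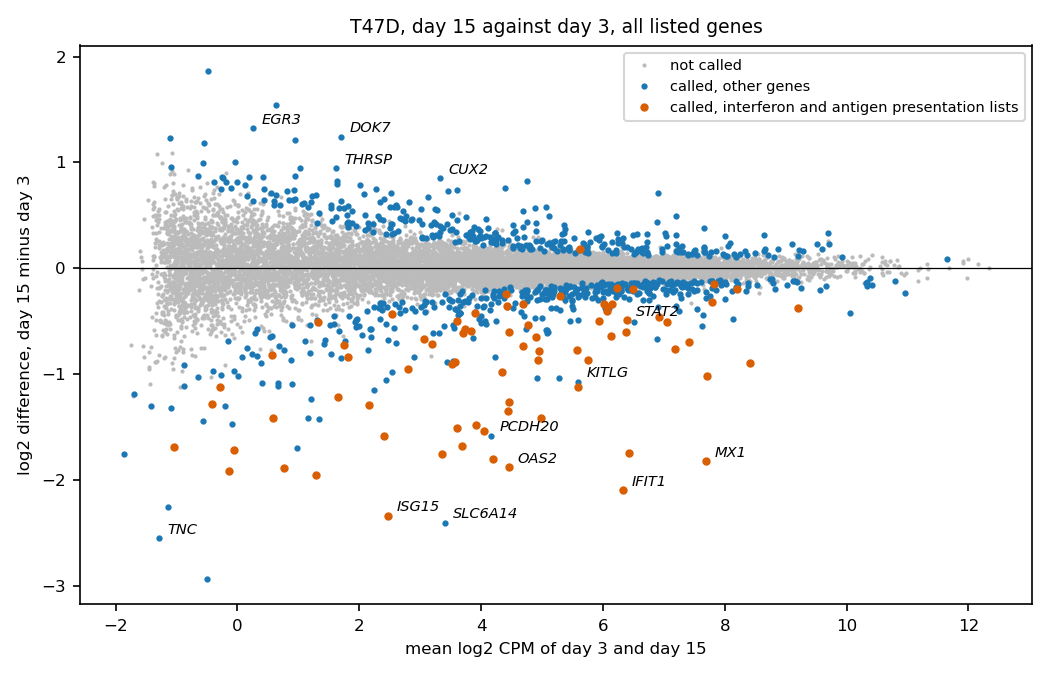
Each point is 1 of the 14768 listed genes, with its mean log2 CPM over the day 3 and day 15 groups on the x axis and the log2 difference, day 15 minus day 3, on the y axis. Called genes of the interferon and antigen presentation lists (orange) lie mostly below 0 and reach -2.34 for ISG15, while other called genes (blue) lie on both sides.

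Interferon-induced effectors made up 24 of the 56 falls of more than 2-fold. Of 58 effectors listed, 51 fell (3.35% of all genes did), none rose and 7 were not called. Their median difference was -0.80 against 0.0021 over all genes. Against control, 1.16% of all genes were higher at day 3 and 5.00% at day 15. Of the 58 effectors, 53 were higher at day 3 (median 1.52) and 45 at day 15 (median 0.76). The mean level at day 15 lay between the control and day 3 means for 55 of them. The falls did not depend on a single library: with each of the 6 libraries left out, 46 to 52 were called lower.

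IFIT1, which binds viral RNA that lacks the host's cap methylation, gave the steepest fall of the effectors. Its level was 171, 164 and 165 CPM at day 3, 40.0, 35.6 and 41.7 CPM at day 15, and 6.73, 6.07 and 6.76 CPM in control cells. The 3 groups were apart, and day 15 was lower than day 3 by 2.09 on the log2 scale, written as a difference of -2.09 (SE 0.0611, adjusted p = 3.96e-11), and above control by 2.57 (adjusted p = 1.59e-12). MX1, a GTPase that traps viral nucleocapsids, went from 388, 378 and 400.5 CPM at day 3 to 110.5, 105 and 115 CPM at day 15, with 21.2, 21.8 and 20.4 CPM in control cells. That is a difference of -1.82 (SE 0.0419, adjusted p = 4.62e-12), and again the groups did not overlap. OAS2, which makes the 2-5A signal that activates RNase L, went from 43.2, 42.2 and 41.2 CPM to 11.9, 11.2 and 11.1 CPM against 1.58, 1.39 and 1.73 CPM in control cells (difference -1.88, SE 0.082, adjusted p = 3.54e-09). IFI6, an antiviral membrane protein, fell from 159, 155 and 156.5 CPM to 46.5, 51.9 and 42.3 CPM (difference -1.75, SE 0.0601, adjusted p = 1.94e-10). Both times were above the control levels of 8.21, 8.15 and 8.12 CPM in all 3 libraries.

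The effectors with fewer reads followed the same order of day 3, day 15 and control. XAF1 (difference -1.96, adjusted p = 0.000289), IFI44L (-1.91, adjusted p = 0.00055) and RSAD2, the radical-SAM enzyme viperin (-1.89, adjusted p = 0.000129), fell. Their day 3 ranges were 4.66 to 4.88, 1.46 to 2.06 and 2.99 to 3.37 CPM, and those of day 15 were 1.09 to 1.38, 0.376 to 0.437 and 0.711 to 0.90 CPM. In control libraries they had at most 7 reads each, so their early rise is imprecise. Among the other large falls were IFIT3 (-1.80, SE 0.107), OASL (-1.76, SE 0.164), OAS1 (-1.68, SE 0.167), the helicase-like genes DDX60L (-1.58, SE 0.114) and DDX60 (-1.48, SE 0.0716), IFIT2 (-1.54, SE 0.0852) and IFI27 (-1.51, SE 0.198). OAS3, the largest synthetase of the OAS family, started from a higher control level and fell less, from 295, 298.5 and 304 CPM to 147, 149 and 147 CPM, with 73.7, 75.0 and 77.0 CPM in control cells (difference -1.02, SE 0.0311, adjusted p = 5.62e-11). All of these genes lay lower in every day 15 library than in every day 3 library. Members of the IFIT and OAS families resemble each other, so reads may be split between them.

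**Figure D2:**
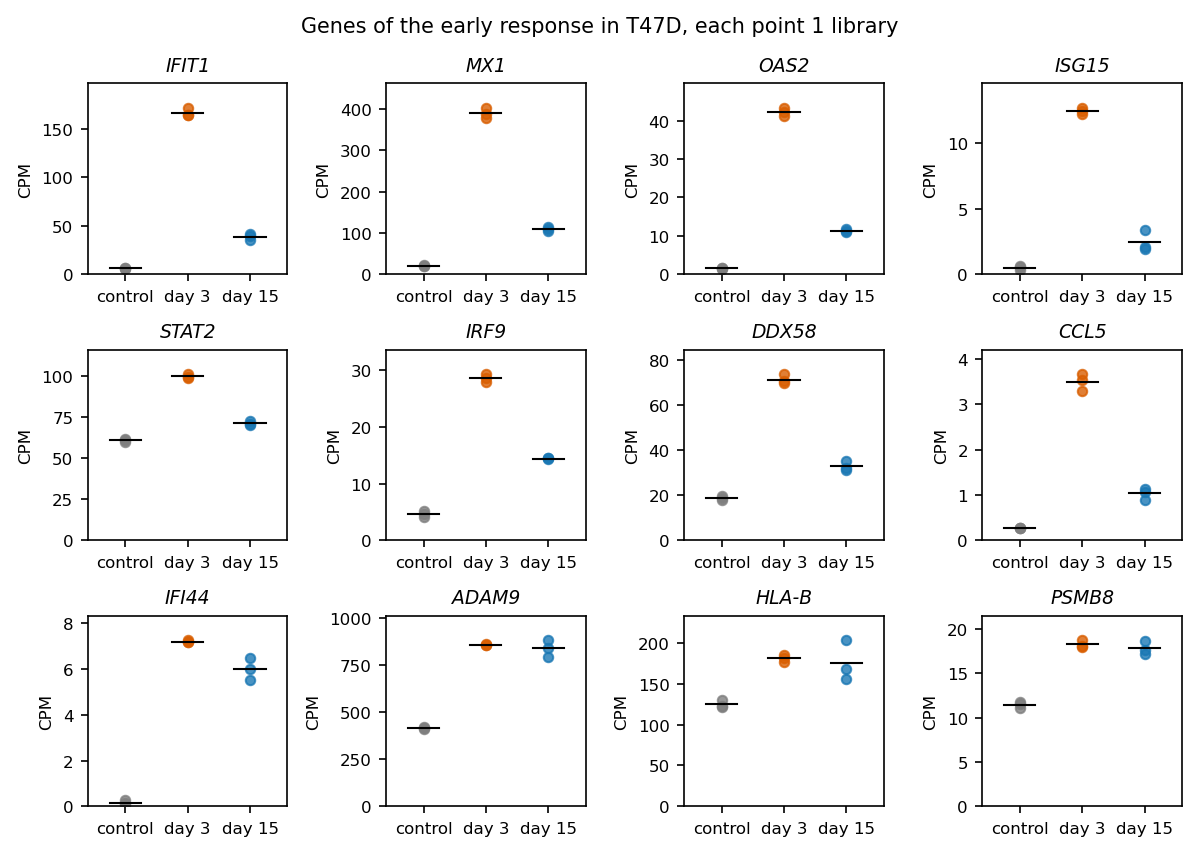
Each panel shows 1 gene in T47D, with CPM on the y axis from 0 and control, day 3 and day 15 on the x axis; points are the 3 libraries of a group and bars their mean. In the panels of the top rows day 15 falls between day 3 and control, while IFI44, ADAM9, HLA-B and PSMB8 (a subunit of the immunoproteasome) lie nearer to day 3 than to control.

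Not every effector was called lower. IFI44, a neighbour of IFI44L on chromosome 1, had 7.24, 7.16 and 7.16 CPM at day 3 and 5.99, 5.51 and 6.46 CPM at day 15, against 0.27, 0.139 and 0.0752 CPM in control cells. Its day 15 libraries were all below those of day 3, but the difference of -0.27 did not pass the test (SE 0.237, adjusted p = 0.638). That SE includes the spread of the control libraries, in which the gene had only 12, 7 and 3 reads. The SD was 0.0089 within day 3 and 0.113 within day 15, so the missing call does not show that the level held. IFI44 remained 4.82 above control (adjusted p = 5e-08). IFI44L, next to it, fell by 1.91 in the same libraries; the difference between these neighbours was not tested. IFITM2, which restricts viral entry, had a difference of -0.04 (SE 0.0708, adjusted p = 0.827) and was above control at both times by 0.65 and 0.60. The other 5 effectors that were not called were MX2 (-0.44, adjusted p = 0.0893, and -0.48 with adjusted p = 0.0233 without day 15 replicate 2), ISG20, NMI, GBP2 and NT5C3A, and of these MX2 alone had been called higher at day 3. SLFN5, which was not called against control at day 3 (0.18, adjusted p = 0.162), was the only effector called lower than control at day 15 (-0.22, adjusted p = 0.0171).

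Sensors of double-stranded RNA fell as well. Of 16 genes of this group 9 fell (3.35% of all genes did) and none rose (median difference -0.33). With 1 library left out 8 to 10 fell. RIG-I (DDX58) had 73.5, 69.7 and 70.6 CPM at day 3, 32.0, 31.1 and 35.4 CPM at day 15 and 19.6, 18.0 and 18.6 CPM in control cells, a difference of -1.12 (SE 0.0548, adjusted p = 9.5e-09). MDA5 (IFIH1) had 59.6, 65.5 and 62.9 CPM, then 36.9, 35.4 and 37.5 CPM, with a control level of 25.2, 24.9 and 23.0 CPM (difference -0.78, SE 0.0509, adjusted p = 2.72e-07). Both sensors stood apart in all 3 groups, with day 15 in the middle. DHX58 (LGP2, a regulator of the other 2), EIF2AK2 (PKR, the kinase that stops translation on double-stranded RNA) and ADAR (which edits such RNA) fell by 0.91 (SE 0.09), 0.70 (SE 0.0581) and 0.38 (SE 0.0296). The adaptors and kinases downstream did not pass the test: MAVS had a difference of 0.0049 (adjusted p = 0.964), TBK1 0.0028 (adjusted p = 0.988) and TRAF3 0.06 (adjusted p = 0.639).

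In the signaling chain, STAT2 and IRF9 fell while most members were not called. STAT2 had 99.6, 101 and 99.3 CPM at day 3, 70.9, 72.8 and 70.2 CPM at day 15 and 61.3, 60.1 and 62.1 CPM in control cells, a difference of -0.49 (SE 0.0346, adjusted p = 6.33e-07). IRF9 went from 29.3, 28.0 and 28.6 CPM to 14.3, 14.5 and 14.5 CPM, with 4.61, 4.19 and 5.19 CPM in control cells (difference -0.98, SE 0.0746, adjusted p = 1.19e-06). For both genes the 3 groups did not overlap, and day 15 was the middle one. IRF7, which drives interferon genes, fell by 0.96 (SE 0.168) and USP18, a protease that removes ISG15 and dampens receptor signaling, by 0.67 (SE 0.0813). Of the receptor chains, IFNAR1 (0.02, adjusted p = 0.845) and IFNAR2 (0.32, adjusted p = 0.0853) were not called and IFNGR2 rose by 0.18 (adjusted p = 0.0257), a call lost without day 3 replicate 1, 2 or 3. JAK1 (0.10, adjusted p = 0.0628) was not called with all libraries, and was without day 15 replicate 2 (0.12, adjusted p = 0.00016). In the whole group of 19 receptor, JAK-STAT and IRF genes, 7 fell, 1 rose and the median difference was -0.0067. Of all genes 3.35% fell and 2.23% rose. Genes for the interferons themselves were not analysed here.

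ISG15, a ubiquitin-like protein that is joined to other proteins, fell the most of the genes of its own pathway. It had 12.7, 12.2 and 12.5 CPM at day 3, 2.10, 3.42 and 1.94 CPM at day 15 and 0.607, 0.336 and 0.601 CPM in control cells, a difference of -2.34 (SE 0.225, adjusted p = 4.11e-05). Its conjugating enzyme UBE2L6 kept more of its rise, with 77.1, 73.5 and 76.7 CPM at day 3, 60.1, 58.2 and 58.4 CPM at day 15 and 35.6, 33.7 and 37.6 CPM in control cells (difference -0.36, SE 0.0447, adjusted p = 0.000157). In both genes every day 15 library lay between the groups of day 3 and control. In all, 5 of 6 genes of this pathway fell (3.35% of all genes did) and HERC5 was not called (-0.07, adjusted p = 0.674).

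Most antigen presentation genes stayed above control, and some fell between the times. Of 18 genes that load or display peptides on MHC class I, 15 were above control at day 3 (median 0.45) and 12 at day 15 (median 0.26). Of all genes 1.16% and 5.00% were. From day 3 to day 15, 3 of the 18 fell (B2M, PSME1 and PSME2), against 3.35% of all genes, and the median difference was -0.14. B2M, the light chain of MHC class I, had 319.5, 311 and 313 CPM at day 3, 274, 267 and 282 CPM at day 15 and 258, 256 and 248 CPM in control cells (difference -0.20, SE 0.0313, adjusted p = 0.00141). HLA-B, a heavy chain (-0.05, adjusted p = 0.812), had 185, 176 and 182 CPM at day 3 and 168, 203 and 156 CPM at day 15, so that day 15 replicate 2 lay above and the other 2 below the day 3 range, and without that replicate it fell by 0.16 (adjusted p = 0.00163). Without day 15 replicate 2 the number of antigen presentation genes that fell was 11, against 9.89% of all genes, among them TAP1, the peptide transporter (-0.30, adjusted p = 4.18e-07), and HLA-C (-0.16, adjusted p = 0.00534). Without day 3 replicate 1 or 2, 2 fell. Reads of HLA genes may be shared between them.

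CCL5, a chemokine that draws T cells, also faded. It had 3.54, 3.29 and 3.66 CPM at day 3, 1.14, 1.08 and 0.899 CPM at day 15 and 0.27, 0.277 and 0.276 CPM in control cells, a difference of -1.70 (SE 0.161, adjusted p = 1.24e-05). Of 20 chemokine, cytokine and NF-kB target genes, 3 fell (CCL5, IER3 and TNFSF10) and none rose (median -0.03). Of all genes 3.35% fell. Counts with 1 library left out were 2 to 4. NFKBIA, a direct target of NF-kB that restrains it, had a difference of -0.05 (adjusted p = 0.591). TNFSF10, the death ligand TRAIL, was close to the threshold (-0.35, adjusted p = 0.048) and was not called without day 15 replicate 1 (adjusted p = 0.131) or day 3 replicate 1 (0.19), 2 (0.0712) or 3 (0.189).

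Genes outside the interferon lists also returned toward control. The lists need not hold every interferon-induced gene, and whether the genes below belong to that response was not tested. PCDH20, a protocadherin, had 30.7, 31.3 and 30.9 CPM at day 3, 10.9, 9.88 and 10.2 CPM at day 15 and 7.92, 8.07 and 6.96 CPM in control cells, a difference of -1.58 (SE 0.0696, adjusted p = 3.63e-09). LAMP3, a lysosomal membrane protein, and CFB, complement factor B, were chosen after their values were seen; they fell by 1.04 (SE 0.057) and 1.42 (SE 0.211). CFB was no longer called above control at day 15 (0.62, adjusted p = 0.0793).

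A few early rises were not followed by a called fall, or grew. ADAM9, a membrane protease, had 852, 852 and 860.5 CPM at day 3, 840.0, 791 and 879 CPM at day 15 and 423, 413 and 409 CPM in control cells, so that it was 1.04 and 1.01 above control on the log2 scale at the 2 times and did not pass the test between them (-0.03, SE 0.035, adjusted p = 0.713). CUX2, a homeobox factor, rose further, from 7.15, 7.50 and 7.59 CPM to 13.7, 13.5 and 13.2 CPM, with 3.22, 3.68 and 3.63 CPM in control cells (difference 0.85, SE 0.0785, adjusted p = 8.69e-06). HSD17B11, a dehydrogenase found on lipid droplets, went from 7, 10 and 5 reads in control libraries to 41, 34 and 39 reads at day 3 and 109, 128 and 125 reads at day 15 (difference 1.54, SE 0.195, adjusted p = 0.000198). In CUX2 and HSD17B11 all 3 groups were apart, with day 15 highest. TES, an actin-associated protein, had 15.5, 16.3 and 13.7 CPM at day 3, 19.8, 20.6 and 19.0 CPM at day 15 and 0.72, 0.653 and 0.676 CPM in control cells. Its further rise of 0.38 (adjusted p = 0.019) was not called without day 15 replicate 1 (adjusted p = 0.0796), day 3 replicate 1 (0.0717) or day 3 replicate 3 (0.11). SLC25A36, a mitochondrial nucleotide carrier, was above control by 1.48 at day 3 and 1.67 at day 15. Its difference of 0.19 (adjusted p = 0.0135) was not called without day 3 replicate 1 (adjusted p = 0.0618), 2 (0.0505) or 3 (0.0822). ADAM9, HSD17B11 and SLC25A36 were singled out after their values were seen.

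Late falls took genes to levels well below those of the control cells. SLC6A14, a transporter of neutral and cationic amino acids on the X chromosome (GRCh38, 116436622 to 116461458), had 22.9, 25.6 and 24.5 CPM at day 3, 4.5, 4.52 and 4.58 CPM at day 15 and 32.6, 31.2 and 30.6 CPM in control cells, a difference of -2.40 (SE 0.0604, adjusted p = 7.6e-12). Most of this fall came after day 3, when it was -0.37 from control. KITLG (stem cell factor, the ligand of the receptor KIT) had 69.8, 71.7 and 67.9 CPM at day 3 and 32.3, 31.8 and 35.5 CPM at day 15 against 99.3, 91.3 and 88.1 CPM in control cells (difference -1.07, SE 0.0526, adjusted p = 9.5e-09). CALCR, the calcitonin receptor, followed the same course, with 54.8, 58.9 and 53.5 CPM, then 27.1, 26.7 and 27.5 CPM, and 73.1, 71.2 and 70.7 CPM in control cells (difference -1.04, SE 0.0439, adjusted p = 2.73e-09). In these 3 genes no groups overlapped and the order was control, day 3, day 15. CLDN1, a tight junction protein, also fell in both steps, by 0.26 to day 3 and a further 0.67 to day 15 (SE 0.0324). INHBA, a subunit of activin, was lower by 1.05 at day 15 than at day 3 (6.80 to 8.85 CPM, then 3.5 to 3.84 CPM; SE 0.097, adjusted p = 8.73e-06). GPNMB, a lysosomal glycoprotein, fell by 0.61 (SE 0.0497). KITLG, CALCR and INHBA were picked out after their values were seen.

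Other genes were near their control level at day 3 and fell afterwards. TMEM45B had 7.33, 6.83 and 6.71 CPM at day 3, 3.06, 3.25 and 3.01 CPM at day 15 and 6.41, 7.26 and 7.04 CPM in control cells (difference -1.15, SE 0.087, adjusted p = 1.19e-06). PLCE1, a phospholipase C that responds to Ras, had 10.3, 9.75 and 9.70 CPM, then 5.64, 6.06 and 4.87 CPM, against 9.20, 10.5 and 9.82 CPM in control cells (difference -0.84, SE 0.0887, adjusted p = 3.52e-05). For both, control and day 3 libraries overlapped and day 15 lay below them. NPR3, the clearance receptor of natriuretic peptides (-0.66, SE 0.0651), LMO4, a LIM-only transcription cofactor (-0.60, SE 0.0429), ADM, the vasodilator peptide adrenomedullin (-0.58, SE 0.105), and AMOTL1, a junction protein that binds YAP (-0.57, SE 0.103), behaved alike. TCF4 and APOBR belonged to the same 8 but were each lost when 1 library was left out (TCF4 without day 3 replicate 2, adjusted p = 0.0672; APOBR without day 3 replicate 1 or 3, adjusted p = 0.0529 and 0.0546).

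Some genes of few reads also fell steeply. LRP2 (megalin, an endocytic receptor) had 75, 112 and 71 reads at day 3 and 12, 6 and 9 at day 15, with 66, 86 and 67 in control libraries (difference -2.93, SE 0.225, adjusted p = 1.35e-06). TNC (tenascin-C, a matrix glycoprotein) had 36, 56 and 36 reads, then 3, 5 and 7, with 43, 78 and 39 in control libraries (difference -2.55, SE 0.274, adjusted p = 4.11e-05). CLEC3A, a matrix lectin, went from 34, 52 and 41 reads to 6, 6 and 8 (difference -2.26, SE 0.243). In each of these genes the day 15 libraries lay below all other libraries. LRP2 and CLEC3A were chosen after their values were seen. Of the 17 mesenchymal and matrix genes listed, 4 fell (TNC, COL3A1, THBS1 and LAMC1), none rose, and the median difference was -0.06. Of all genes 3.35% fell. COL3A1, a fibrillar collagen, went from 15.8, 15.1 and 16.1 CPM to 9.35, 8.10 and 8.17 CPM (difference -0.87, SE 0.0746). COL3A1 is also a fibroblast marker; of 8 such markers only COL1A1 and COL3A1 were listed, with sums between 33.1 and 35.9 CPM at day 3 and between 24.7 and 27.3 CPM at day 15, and their part in the result was not tested. MET, the receptor of hepatocyte growth factor, fell by 1.12 (adjusted p = 0.0121) at 30 to 38 reads per day 3 library and 11 to 19 per day 15 library, a call lost without day 3 replicate 1 (-1.02, adjusted p = 0.0746).

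**Figure D3:**
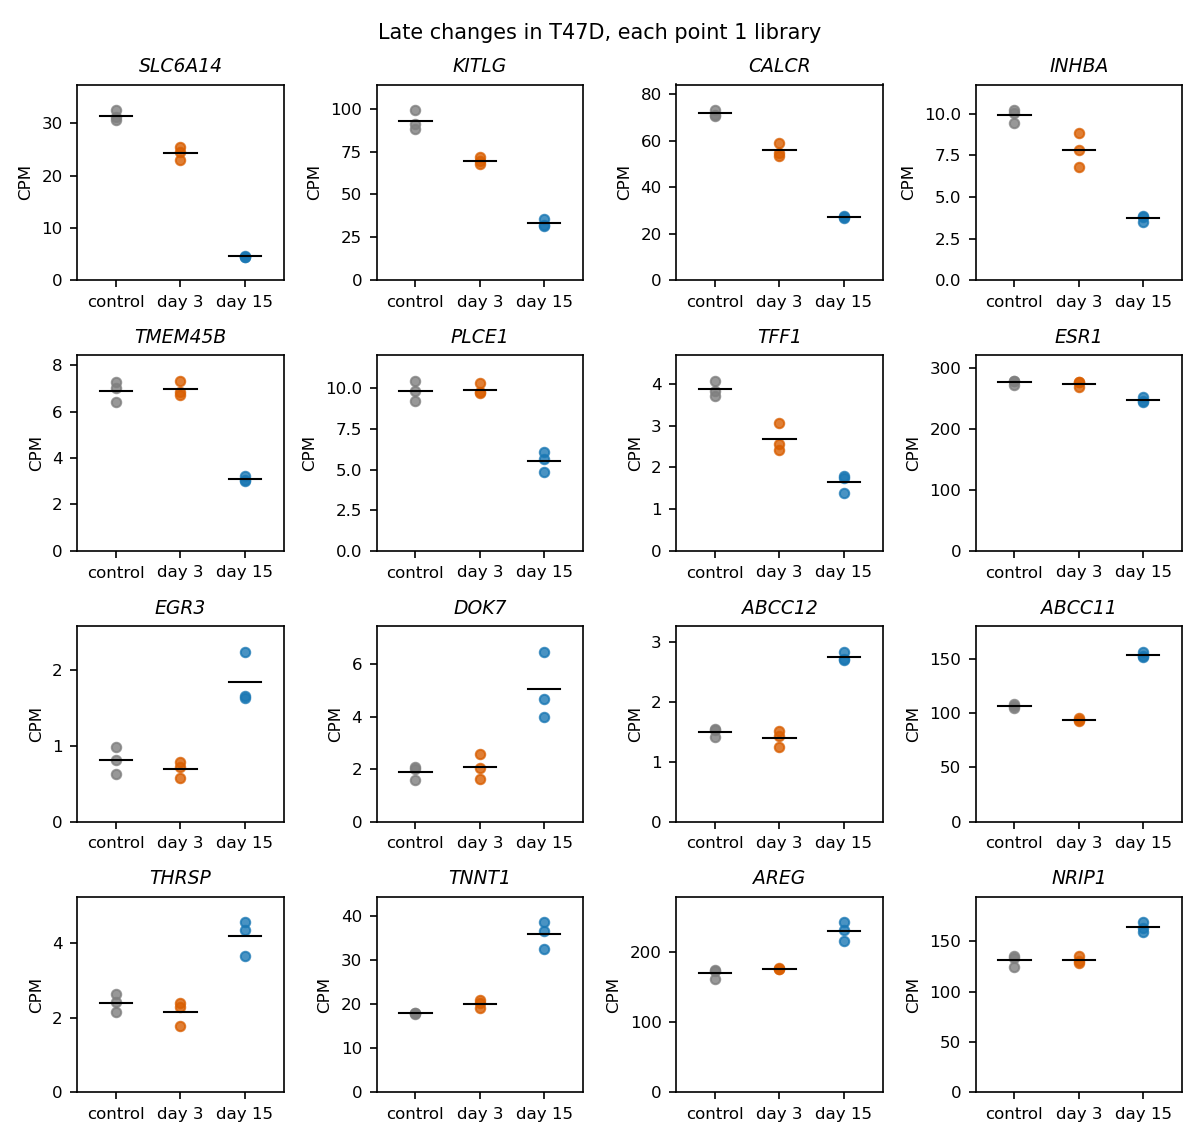
Each panel shows 1 gene in T47D, with CPM on the y axis from 0 and control, day 3 and day 15 on the x axis; points are the 3 libraries of a group and bars their mean. Day 15 stands below day 3 in the top panels from SLC6A14 to ESR1 and above it in the panels from EGR3 to NRIP1.

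Other genes rose late. EGR3, an immediate early factor that estrogen and growth factors induce, had 32, 26 and 35 reads at day 3, 76, 102 and 78 at day 15 and 36, 32 and 39 in control libraries (difference 1.33, SE 0.204, adjusted p = 0.00107). DOK7, an adaptor that activates the muscle kinase MuSK, had 2.05, 2.57 and 1.63 CPM, then 4.65, 6.48 and 3.99 CPM, against 2.07, 2.0 and 1.58 CPM in control cells (difference 1.24, SE 0.194, adjusted p = 0.00156). In both genes day 15 replicate 2 was the highest of the day 15 libraries, and without it the differences were 1.18 (adjusted p = 0.000365) and 1.05 (adjusted p = 2.46e-05). The other genes that rose by over 2-fold had few reads. They were CD69 (1.87), HSD17B11 (1.54), AGT (1.23), SHISA9 (1.21), the mitochondrial transfer RNA gene TRNS1 (1.19) and MAGEA1 (1.00), named here because the count is small. TRNS1 was not called without day 15 replicate 3 or any 1 of the day 3 libraries (adjusted p = 0.1, 0.148, 0.186 and 0.0736), nor MAGEA1 without day 3 replicate 2 (adjusted p = 0.0814).

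A pair of neighbouring transporter genes on chromosome 16 rose together. ABCC11 (GRCh38, 48166910 to 48247568, minus strand), an efflux pump known for its role in apocrine secretion, had 95.2, 92.6 and 93.4 CPM at day 3, 157, 153 and 152 CPM at day 15 and 105, 107 and 108.5 CPM in control cells (difference 0.71, SE 0.0323, adjusted p = 4.78e-09). ABCC12 (48081006 to 48156018, same strand) had 1.51, 1.44 and 1.24 CPM, then 2.84, 2.72 and 2.70 CPM, and 1.42, 1.54 and 1.53 CPM in control cells (difference 0.95, SE 0.129, adjusted p = 0.000407). Day 15 was above all other libraries for both. TNNT1, slow skeletal troponin T, went from 19.2, 20.96 and 20.2 CPM to 38.5, 32.5 and 36.5 CPM (difference 0.83, SE 0.0628, adjusted p = 1.19e-06). Smaller called rises were those of PAX2 (0.82), BOC (0.79), NEGR1 (0.79), CLSTN2 (0.76), WT1 (0.74), LAD1 (0.73) and CHN1 (0.71), which held with each library left out. CD34 (0.67, SE 0.0764), UBASH3B (0.63, SE 0.0824), CD109 (0.62, SE 0.0972), PHLDA2 (0.60, SE 0.115) and the semaphorin co-receptor PLXNA2 (0.59, SE 0.0912) were near control at day 3 and higher at day 15.

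Some estrogen-induced genes rose and others fell. Of 26 listed, 5 rose and 5 fell (2.23% and 3.35% of all genes did), with a median difference of -0.03. AREG, a ligand of the EGF receptor, had 176, 176 and 177 CPM at day 3, 232, 216 and 243 CPM at day 15 and 174, 173 and 162 CPM in control cells (difference 0.38, SE 0.0419, adjusted p = 5.29e-05), and NRIP1, a corepressor of the receptor, rose by 0.32 (SE 0.0396). TFF1, a secreted trefoil peptide and a classical estrogen target, had 2.56, 2.41 and 3.07 CPM, then 1.79, 1.38 and 1.76 CPM, against 3.82, 4.08 and 3.71 CPM in control cells (difference -0.69, SE 0.134, adjusted p = 0.00676). STC2, a secreted glycoprotein, fell by 0.24 (SE 0.0264). GREB1 (-0.06, adjusted p = 0.281) and PGR (-0.05, adjusted p = 0.404), further estrogen targets, were not called with all libraries. Without day 15 replicate 2, GREB1 was called lower (-0.08, adjusted p = 0.0202) and PGR was not called (adjusted p = 0.284). The next counts are from fits without day 15 replicate 1, 2 or 3 and day 3 replicate 1, 2 or 3, in that order. In them 4, 5, 4, 4, 3 and 4 genes of the list rose and 3, 11, 4, 2, 2 and 3 fell. Without day 15 replicate 2, 7.74% of all genes rose and 9.89% fell. The receptor gene ESR1 had 277, 277 and 270 CPM at day 3, 244.5, 246 and 253 CPM at day 15 and 279, 280 and 273 CPM in control cells. The ESR1 difference of -0.15 (SE 0.0293, adjusted p = 0.00739) was not called without day 3 replicate 1 (adjusted p = 0.0582) or 2 (0.0575). FOXA1 (0.0018, adjusted p = 0.985) and GATA3 (0.07, adjusted p = 0.21), factors that open chromatin for the receptor, were not called with all libraries. Without day 15 replicate 2, GATA3 was called higher (0.09, adjusted p = 0.00654) and FOXA1 was not called (adjusted p = 0.94).

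Feedback and early response genes of the MAPK pathway, taken as 1 list, were split as well. Of 19 listed, 3 rose (DUSP4, DUSP6 and SPRED2) and 3 fell (DUSP1, JUN and ATF3). Of all genes 2.23% rose and 3.35% fell. DUSP4, a phosphatase that acts on ERK, had 51.3, 52.4 and 48.3 CPM at day 3, 58.6, 64.1 and 57.7 CPM at day 15 and 67.8, 65.7 and 66.6 CPM in control cells (difference 0.24, SE 0.0471, adjusted p = 0.00616). DUSP1, a related phosphatase, went down from 5.95, 5.57 and 6.26 CPM to 4.17, 4.52 and 3.97 CPM (difference -0.48, SE 0.0882, adjusted p = 0.00419), and JUN fell by 0.27 (SE 0.0518). DUSP4, DUSP1 and JUN were each called with every library left out in turn. The numbers that rose, in the order of libraries given above, were 1, 3, 2, 1, 1 and 2, and those that fell were 2, 5, 3, 2, 3 and 3.

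Some targets of ATF4, the transcription factor of the amino acid response, fell. Of 28 listed, 5 fell (3.35% of all genes did), 23 were not called, none rose and the median difference was -0.10. At day 15, 18 were called below control (6.23% of all genes were) and none above it. SLC7A5, the large neutral amino acid transporter LAT1, had 338, 328 and 334 CPM at day 3, 226, 276 and 218 CPM at day 15 and 359, 366.5 and 392 CPM in control cells (difference -0.48, SE 0.0742, adjusted p = 0.0031). Its partner SLC3A2 had 156, 194 and 146 CPM at day 15 against 212 to 217 CPM at day 3 (difference -0.38, adjusted p = 0.0233). In both, day 15 replicate 2 stood closest to day 3. DDIT3, the stress factor CHOP, fell by 0.37 (SE 0.0629). In the order of libraries given above, the counts that fell with 1 left out were 4, 14, 4, 3, 3 and 4. Without day 15 replicate 2, 9.89% of all genes fell. SLC3A2 was called in 2 of these 6 fits, without day 15 replicate 2 or day 3 replicate 3.

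Some genes of energy metabolism fell, in numbers that depended on the libraries. Of 49 respiratory chain genes 9 fell (3.35% of all genes did) and none rose, with a median difference of -0.10. CYCS, cytochrome c, had 497, 487 and 469 CPM at day 3, 419, 422 and 425 CPM at day 15 and 494, 477.5 and 481 CPM in control cells (difference -0.20, SE 0.0298, adjusted p = 0.000873), and COX6C, a subunit of cytochrome c oxidase, fell by 0.24 (SE 0.0404). Both groups of 3 were apart in each of these genes. Counts that fell with 1 library left out were, in the same order, 6, 30, 8, 3, 4 and 5. Without day 15 replicate 2, 9.89% of all genes fell. For the 27 genes of fatty acid oxidation and PPAR signaling, 5 fell, none rose (median -0.07) and the counts were 4, 11, 6, 3, 3 and 3. PPARGC1A, a coactivator of mitochondrial genes, went from 29.7, 30.4 and 31.2 CPM to 21.5, 20.9 and 24.2 CPM (difference -0.45, SE 0.0594, adjusted p = 0.000288). Of 31 lysosome genes 6 fell and none rose (median -0.06), with counts of 1, 14, 5, 1, 1 and 3.

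Some genes of lipid synthesis and storage rose, and most of these calls depended on the libraries. Of 16 genes of fatty acid synthesis 3 rose (2.23% of all genes did), 0.95 for THRSP, a lipogenic regulator (2.30, 1.77 and 2.40 CPM at day 3, then 4.57, 3.67 and 4.37 CPM; SE 0.14, adjusted p = 0.000758), 0.22 for FADS2 and 0.09 for SCD. THRSP was higher in each day 15 library and was called with every library left out in turn, while SCD and FADS2 were called in 1 and 2 of those 6 fits; the counts that rose were 1, 5, 2, 1, 1 and 1. Of 26 cholesterol genes 1 rose (INSIG1) and none fell, while 2.23% of all genes rose and 3.35% fell. The counts that rose were 1, 3, 0, 0, 0 and 0, and without day 15 replicate 2 another 3 fell. In that fit 7.74% of all genes rose and 9.89% fell, so the cholesterol counts are not read as a result about that list. Of 18 genes of lipolysis and lipid droplets 2 rose and none fell: DGAT2, which makes triglycerides (0.50, adjusted p = 0.0294), and MGLL, which cleaves monoglycerides (0.34, adjusted p = 0.0383). With 1 library left out, the DGAT2 call was lost in 3 of the 6 fits and that of MGLL in 5. PNPLA2, the lipase that G0S2 inhibits, had 33.6, 33.6 and 35.7 CPM at day 3 and 37.4, 41.6 and 31.6 CPM at day 15 (difference 0.10, SE 0.0821, adjusted p = 0.612). PLIN2, a lipid droplet coat protein, had a difference of -0.06 (adjusted p = 0.565).

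A few mitotic genes rose, and how many did turned on single libraries. Of 41 listed, 4 rose (PLK1, AURKB, BIRC5 and NEK2), against 2.23% of all genes. Of the list 37 were not called, none fell, and the median difference was 0.09. PLK1, a kinase of mitotic entry, had 189, 187 and 191 CPM at day 3, 219, 224 and 209.7 CPM at day 15 and 186, 186 and 194 CPM in control cells (difference 0.20, SE 0.0335, adjusted p = 0.00195). Without day 15 replicate 2, 27 of the 41 rose (median 0.12), where 7.74% of all genes rose. In the order of libraries given above the counts were 1, 27, 4, 1, 1 and 2. Of 42 DNA replication genes 3 rose and none fell (median 0.04), with counts of 0, 6, 2, 0, 0 and 0. MYC (-0.03, adjusted p = 0.835) and CCND1 (0.07, adjusted p = 0.186), drivers of cell cycle entry, were not called. The cell cycle inhibitor CDKN2B fell by 0.45 (SE 0.0708, adjusted p = 0.00127).

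**Figure D4:**
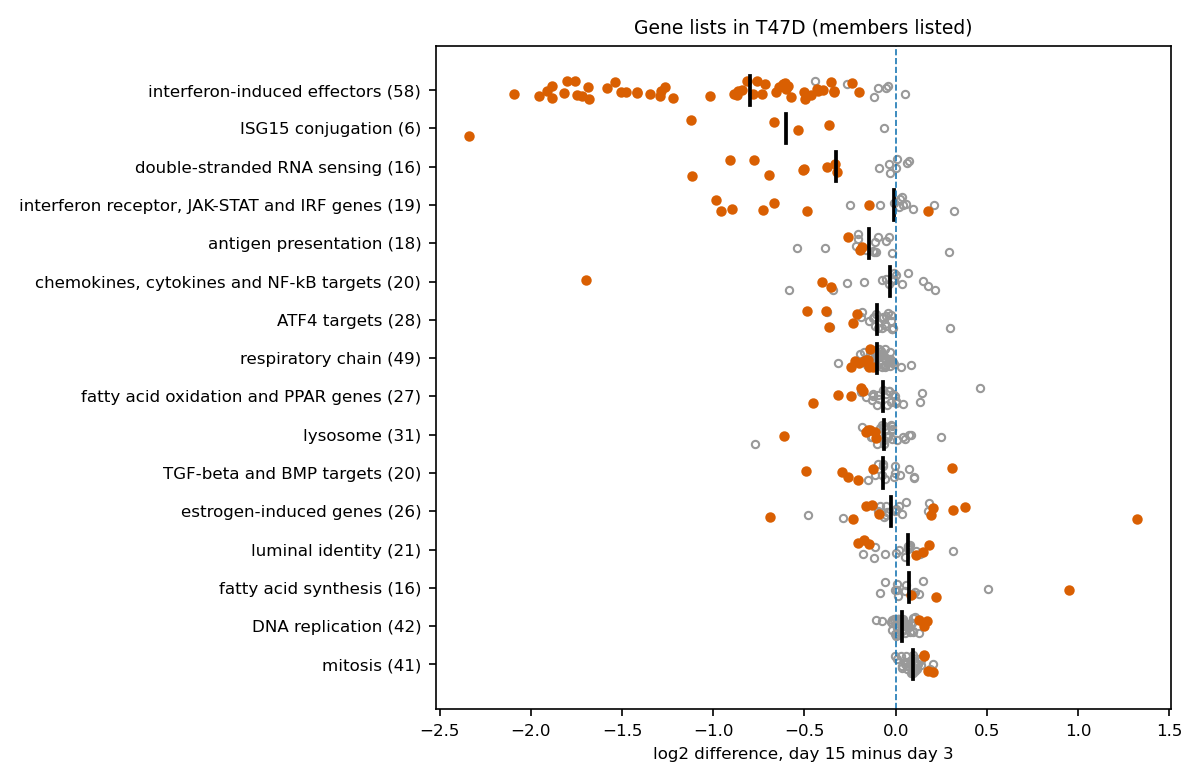
Each row is a gene list and each point 1 member, placed by its log2 difference, day 15 minus day 3; filled points were called, open ones were not, black bars are list medians and the dashed line is the median of all genes. The effectors have a median of -0.80, and the medians of the lists from ATF4 targets downward lie between -0.10 and 0.09.

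MDA-MB-231 was measured over the same interval, with values that were scaled separately and not tested against T47D. There, 409 of 14308 listed genes fell (2.86%) and 354 rose (2.47%) from day 3 to day 15. Of 60 interferon-induced effectors listed, 5 fell and 1 rose (median -0.04). IFI27 (-0.33, adjusted p = 0.00638), TRIM22 (-0.55, adjusted p = 0.0134), BST2 (-0.19, adjusted p = 0.00323) and LGALS3BP (-0.12, adjusted p = 0.00728) were called lower in MDA-MB-231 and also in T47D, where their differences were -1.51, -1.69, -0.76 and -0.65. GBP2 (-0.14, adjusted p = 0.0417) fell and TRIM14 (0.12, adjusted p = 0.0325) rose in MDA-MB-231, while in T47D GBP2 was not called (-0.06, adjusted p = 0.954) and TRIM14 fell by 0.43 (adjusted p = 0.00117). The T47D call of TRIM22, a gene of few reads, was lost without day 3 replicate 1 or 2. The 41 mitotic genes had 20 rises and no fall (median 0.09). IFIT1 (-0.06, adjusted p = 0.365), MX1 (-0.13, adjusted p = 0.346) and STAT2 (-0.07, adjusted p = 0.326), each called lower in T47D, were not called in MDA-MB-231. Differences from control are not given here for MDA-MB-231. These values therefore do not show whether the effectors had risen there by day 3.

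**Figure D5:**
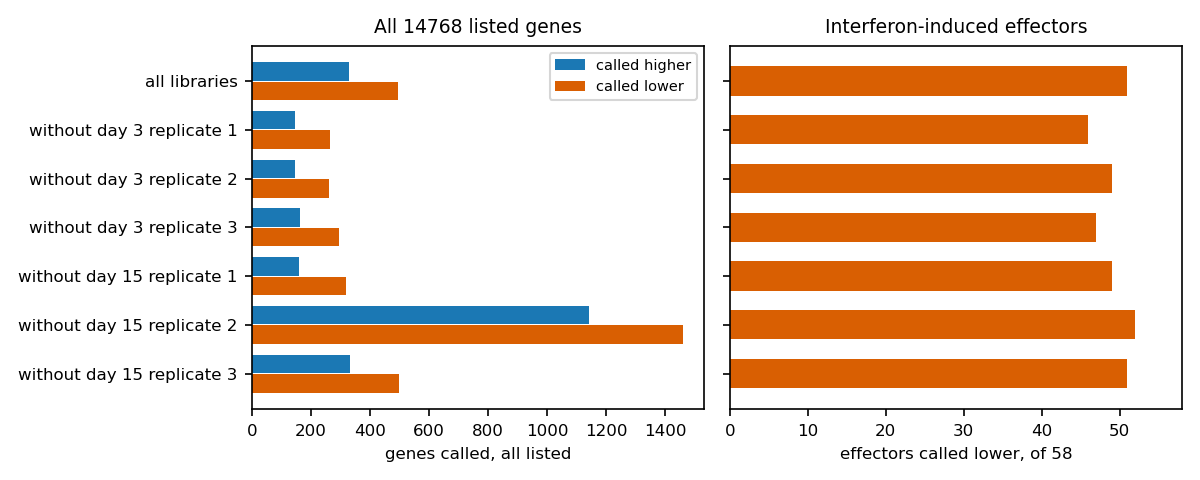
Bars count genes called between day 15 and day 3 with all libraries and with each of the 6 left out, over all listed genes (left, higher in blue and lower in orange) and among the 58 interferon-induced effectors (right, lower only); the x axes start at 0. The total ranges from 403 to 2604 with 1 library left out, while the effectors stay between 46 and 52.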

How the data were processed

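RNA from 18 libraries was sequenced, and the 9 of T47D were fitted here, with those of MDA-MB-231 fitted apart in the same way. The authors deposited log2 CPM values per gene and library, 1 table per line; STAR, featureCounts and limma on GRCh38.p13 are named in the submitters' processing notes, without versions. Normalization, filtering of genes and strand setting were not stated there. In T47D, taking off 3 reads (a pseudocount scaled to the library) left whole reads, within 0.1, for every value. CPM and reads in the text are free of that pseudocount. Log2 differences include it and understate changes of genes with few reads.

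Day 15 was compared with day 3 in limma 3.58.1 (R 4.3.3, statmod 1.5.0) on the deposited values, with group means over 9 libraries, trend and robust options, and a Benjamini-Hochberg adjusted p under 0.05 over 14768 genes. The deposited unit is log2, and count models on the recovered reads were not run. Chi-square per degree of freedom between libraries of a group was 1.74 to 23.6, so each was counted once.

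The members, the 37 gene lists and the tests were chosen with earlier results of these data known. Genes were named by rule: G0S2; the 15 largest called rises and falls without overlap at a mean log2 CPM of 1 or more; 8 of each direction within 0.1 of control at day 3; up to 6 called members per list with at least 3 called, else 2; and a fixed panel. Some named genes fall outside this rule and were chosen after their values were seen: those marked so in the text, OAS3, IFI44, HLA-B, HLA-C, TAP1, PSMB8, ADAR, SLFN5, IFNGR2, TRIM14, TRIM22, BST2, LGALS3BP, GBP2, the uncalled list members, and the remaining rises of over 2-fold. Promoters came from RefSeq (GRCh38.p14), and gene positions and the GC content of the longest transcript from GENCODE 29; 9698 of 9925 genes had a GC value. Some genes are not reported here. Alternatives left out each library, dropped the controls or the trend and robust options, added array weights or a replicate block, and changed pseudocount, filter or centring.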

Additional observations from a re-analysis of the deposited data

Results flagged for a closer look

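For TRIM14, an interferon-induced effector, every day 15 library lay below every day 3 library in T47D (-0.43) and above every day 3 library in MDA-MB-231 (0.12). For 6 other genes, every day 15 library lay above every day 3 library in T47D and below every day 3 library in MDA-MB-231, and all 7 were called in both lines. The difference between the lines was not tested, because the tables were scaled separately. The 6 were SCD, stearoyl-CoA desaturase (0.0852 in T47D and -0.35 in MDA-MB-231), INSIG1, which retains SREBP in the endoplasmic reticulum (0.14 and -0.23), the fatty acid desaturase FADS2 (0.22 and -0.24), the lipase MGLL (0.34 and -0.12), the carrier SLC25A36 (0.19 and -0.13) and TIMP2, an inhibitor of metalloproteinases (0.23 and -0.10). The 7 genes stand among 18 named genes called in both lines, of 144 called in T47D and listed in MDA-MB-231. Only named genes were searched for this pattern, and its share over all genes of both lines was not counted. Over all listed T47D genes, 10.5% lay higher and 11.9% lower at day 15 without overlap. With 1 of the 6 T47D libraries left out, the T47D call was lost in 5 of the 6 fits for SCD and MGLL, in 4 for FADS2 and INSIG1, in 3 for SLC25A36 and in 0 for TIMP2 and TRIM14. The MDA-MB-231 calls were not refitted with libraries left out. Groups of 3 libraries were not tested for a single outlying value.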

How the results depend on the processing

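Of 174 named genes called, none changed direction in a setting in which it was run, 109 kept their call in all of those and 111 with each library left out; 20 lay under a mean log2 CPM of 1 and were not run with that filter. Totals of called genes, 824 in all, were 403 to 2604 with 1 library left out, with 144 to 1143 rises and 259 to 1461 falls. The highest came without day 15 replicate 2 and the lowest without day 3 replicate 2. The fit of day 3 and day 15 libraries alone gave 463 (166 higher, 297 lower), and that without trend and robust options 549, with 327 lower. Array weights gave 6255 (3080 higher, 3175 lower, and 18 higher by over 2-fold); their estimation stopped before it converged, with a weight of 12.7 for day 15 replicate 1 and 0.154 for replicate 2, so this count is not relied on. Genes higher and lower by over 2-fold numbered 0 and 28 on the log2(CPM + 1) scale, whose larger pseudocount shrinks low genes, and 1 and 29 among genes with a mean log2 CPM of 1 or more. With the replicate block 511 genes were called (185 higher, 326 lower). Same-numbered libraries did not deviate together (correlations of -0.10, -0.09 and -0.02). This cannot decide whether the numbers pair libraries, since the day 15 differences within the group also followed GC content. Their correlation with GC content was 0.651 in replicate 2 and -0.736 in replicate 3. Falls of interferon-induced effectors numbered 43 to 53 over all settings. With 3 libraries a group and 44.2 M to 47.9 M reads, differences of genes with few reads are imprecise.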
